A study of Rattus norvegicus with 4 samples.

Results

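The genes described here are 43 genes of the interferon response, chosen by symbol from the 32623 genes of the deposited expression table. They encode the interferon receptors, the transcription factors behind them, sensors of viral RNA, and the antiviral proteins that interferon induces. Each symbol had 1 row in the table, so all 43 were found. RNA sequencing was done on TSPCs of the rat. These tendon stem/progenitor cells are grown from tendon, resemble fibroblasts and can form tendon, cartilage, bone and fat. There were 2 groups of 2 libraries, labelled as biological replicates. Both held the same cell type from tendon; the controls received DMSO, the solvent, and the other cells received U0126, which blocks MEK, the kinase upstream of ERK. The comparison asks how transcripts change in TSPCs when MEK is inhibited. The sources used here give no strain, sex, age, dose or exposure time. They do not say whether the replicates came from separate animals or cultures, so the p-values measure the spread between these libraries, which may be technical.

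Interferons are secreted proteins that warn cells of infection. Type I interferons bind the IFNAR receptor, whose kinases JAK1 and TYK2 phosphorylate STAT proteins, among them STAT2. With IRF9 these form a complex that binds the interferon-stimulated response element (ISRE) of antiviral genes. Type II interferon (interferon gamma) binds the IFNGR receptor and acts through JAK1, JAK2 and STAT proteins that bind another element, called GAS. Fibroblast-like cells in culture carry these receptors and express many of the induced genes at a low level without infection.

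Total counts per library lay between 36888913 and 42785190, and between 16100 and 16329 genes had a count. Levels below are in CPM, counts scaled to a common library total and corrected for library composition by TMM, and are given in the order control 1, control 2, U0126 1, U0126 2. A library with 0 counts of a gene allows a level of up to 3 counts, between 0.0689 and 0.0829 CPM over the libraries. Intervals and limits cover counting error only. All 12 tendon and mesenchymal progenitor markers had counts, summing to between 31753 and 35358 CPM. Most of this sum was Col1a1, at 20526 to 23943 CPM, so it does not show the other markers to be stable. The weakest was tenomodulin (Tnmd), typical of mature tendon, with 7 counts in the controls and 2 with U0126; it was named after its values were seen. Groups were compared by the quasi-likelihood test of edgeR in 14023 genes, with p-values adjusted over all of them (Benjamini-Hochberg), a threshold of 0.05 and n = 2 libraries a group. Of the 11 progenitor markers tested, 4 were higher with U0126 (36.4%, beside 8.41% of all genes tested) and 2 lower (18.2%, beside 11.5%). Those higher were Scx, Col3a1, Nt5e and Pdgfrb, and those lower Tnc and Thy1, all named after their values were seen.

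Of the 43 genes, 39 had enough counts to be tested. With U0126, 8 fell, 0 rose and 31 did not pass. Among all genes tested, 11.5% were lower and 8.41% higher, against 20.5% and 0% of these 39. The genes that fell were Irf7, Usp18, Isg15, Trim25, Mx2, Oas1a, Ifitm3 and Ifi27. Without adjustment, 1 member was higher and 12 were lower at a p under 0.05, beside 16% and 17.8% of all genes tested, and DESeq2 called 0 higher and 10 lower (8.82% and 12.1% of all genes). The median log2 fold change was -0.16, also with genes at 0 counts placed at their limit, beside 0.02 over all genes tested. Both U0126 libraries lay below both controls in 17 of the 39 (43.6%, against 31% of all genes tested), and above them in 4 (10.3%, against 31.8%). In bulk RNA, fewer cells expressing a gene and less RNA per cell cannot be told apart.

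With RLE factors, library totals, no filter and the replicate block, 8, 10, 9 and 9 members fell, of 39, 39, 42 and 39 tested. Among all genes 11.6%, 13.2%, 8.37% and 10.1% fell. In these settings 0 members rose, beside 8.24%, 6.78%, 5.81% and 6.83% of all genes.

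With a library left out, 39 to 42 members were tested. The number of members that fell depended on which library was left out. It was 2 without control replicate 1 (Mx2 and Ifi27) and 5 without control replicate 2, where 4.2% and 4.19% of all genes tested were lower. It was 11 without U0126 replicate 1 and 13 without U0126 replicate 2, where 13.2% and 17.3% were. Without U0126 replicate 1, 4 members rose (Ifnar1, Ifngr2, Irf1 and Isg20), beside 9.64% of all genes. Without control replicate 1, control replicate 2 or U0126 replicate 2, 0 members rose, beside 2.12%, 2.05% and 14.8%. Mx2, Oas1a and Ifit1 passed the filter on low counts through the controls alone, so they had to differ. Without these 3 genes, 6 of 36 fell, beside 11.5% of all genes tested, a share from which such genes were not removed. The 12 members lower without adjustment, the 10 lower by DESeq2 and the 17 with both U0126 libraries below both controls include these 3 genes. The counts of members that fell in the other settings, and with a library left out, also hold genes of this kind.

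**Figure D1:**
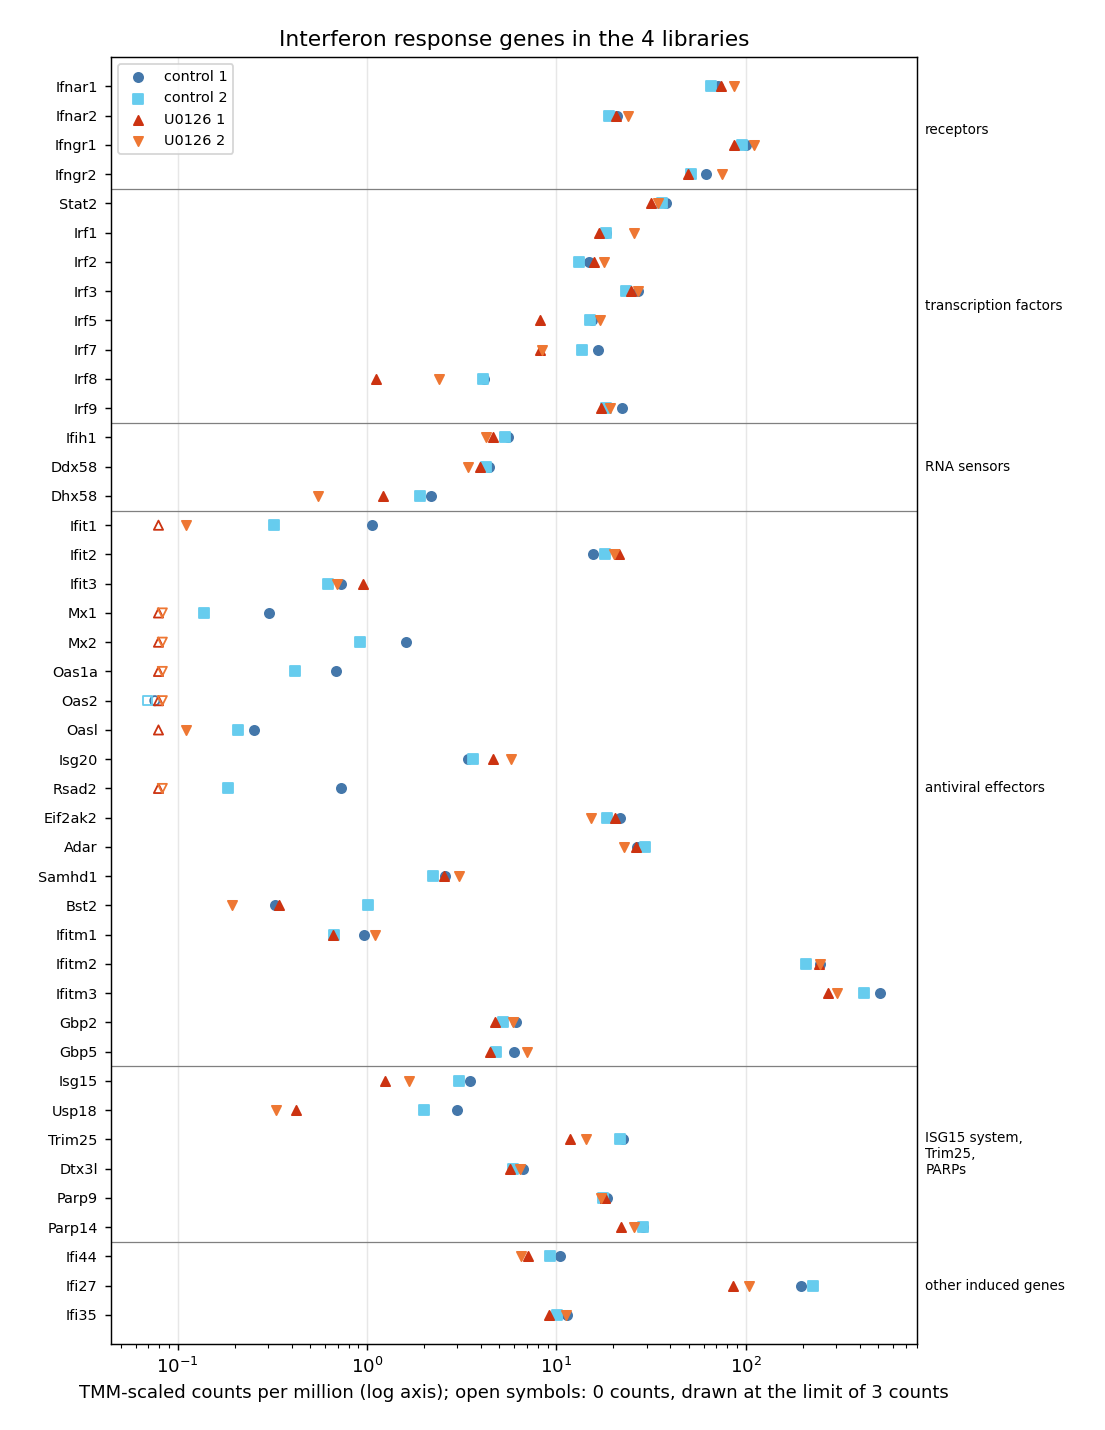
Level of each of the 43 genes in the 4 libraries, in TMM-scaled CPM on a log axis, grouped by role. Each symbol is 1 library and an open symbol a count of 0, drawn at the limit of 3 counts; the 4 receptor genes overlap or lie close together, while Mx1, Mx2, Oas1a and Rsad2 have counts in both controls and in neither U0126 library.

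The genes span a wide range of levels. TPM, which divides by gene length and so allows genes to be compared, had a median of 7.35 over the 43 genes in the controls (mean of 2 libraries). Only 3 genes were above 100 TPM. These were Ifitm3 at 1200.1 TPM and Ifitm2 at 616 TPM, which encode membrane proteins that block virus entry, and Ifi27, a small membrane protein induced by type I interferon, at 481 TPM. The receptor gene Ifngr1 followed at 93.2 TPM. Isg15, at 4.44 TPM in the controls, was 24th in the order and Usp18, at 2.56 TPM, was 29th. Several antiviral effectors were at the bottom, with Mx2 at 0.886, Ifit1 at 0.586, Oas1a at 0.491, Rsad2 at 0.221 and Mx1 at 0.115 TPM. Oas2 had 0 counts in all 4 libraries. In the U0126 libraries the first 3 places were the same, at 709 TPM for Ifitm3, 639 for Ifitm2 and 206 for Ifi27.

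None of the 4 receptor genes passed the test. Ifnar1 and Ifnar2 encode the chains of the type I receptor, and Ifngr1 and Ifngr2 those of the type II receptor. Ifnar1 was at 71.4, 65.9, 74.2 and 87.2 CPM (edgeR adjusted p = 0.186, log2 fold change 0.23 ± 0.11 SE). Both U0126 libraries were above both controls. Ifngr1 was at 100.3, 96, 86.4 and 111 CPM, so that its U0126 libraries lay on either side of the controls. Ifnar2 and Ifngr2 also overlapped between the groups, with log2 fold changes of 0.16 ± 0.13 and 0.13 ± 0.19. Without U0126 replicate 1, Ifnar1 and Ifngr2 passed as higher (edgeR adjusted p = 0.0228 and 0.0313).

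Of the 8 transcription factor genes, 1 was lower, 0 were higher and 7 missed the threshold. That is 12.5% lower and 0% higher, beside 11.5% and 8.41% of all genes tested. The one that fell was Irf7, which encodes the factor that amplifies type I interferon production and is itself induced by interferon (chromosome 1, 214248837 to 214252456, rn6). Irf7 was at 16.5, 13.6, 8.17 and 8.42 CPM. The U0126 libraries were close to each other and below both controls. This is a fall of 1.81-fold (log2 fold change -0.86 ± 0.15 SE, edgeR adjusted p = 0.00886). Without control replicate 1 the call was lost (edgeR adjusted p = 0.116; over the other alternatives it went from 0.000274 by DESeq2 to 0.0444). The deposited span of Irf7 overlaps the end of Phrf1 on the opposite strand, and whether the counting used strand is not known from the sources at hand, so reads of both genes may be mixed there. Phrf1 had 2225, 2783, 2093 and 2299 counts.

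Irf8, a factor known mainly from macrophages and dendritic cells, was at 4.16, 4.09, 1.11 and 2.40 CPM. Its U0126 libraries were below both controls but differed from each other, and the test was just missed (log2 fold change -1.24 ± 0.36, edgeR adjusted p = 0.0515). Irf8 passed as lower in 5 of 9 alternatives, among them DESeq2 (adjusted p = 0.0247), and its adjusted p ranged from 0.000989 to 0.228. The log2 fold change was -1.90 without U0126 replicate 2 and -0.78 without U0126 replicate 1. Irf5, a factor downstream of Toll-like receptors, was at 15.5, 15.1, 8.17 and 16.9 CPM. Only the first U0126 library was low, and Irf5 passed as lower when the second was left out (log2 fold change -0.92, edgeR adjusted p = 0.00124). Irf5 overlaps Tnpo3, and Irf3 overlaps Bcl2l12, on the opposite strand.

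Neither of the 2 members that belong to the complex at the ISRE passed. Stat2 was at 37.7, 36.0, 31.6 and 34.6 CPM (log2 fold change -0.16 ± 0.10, edgeR adjusted p = 0.332). Irf9 was at 22.2, 18.2, 17.3 and 19.1 CPM (-0.15 ± 0.14, edgeR adjusted p = 0.492). Irf3, the factor that starts interferon transcription after viral RNA is sensed, was at 27.0, 23.4, 24.8 and 27.1 CPM, with overlapping groups. Irf1, an activator induced by interferon gamma, and Irf2, its antagonist, had log2 fold changes of 0.21 ± 0.20 and 0.27 ± 0.14. Irf1 passed as higher without U0126 replicate 1 (edgeR adjusted p = 0.0147).

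The 3 RNA sensors are helicases that recognise viral RNA in the cytoplasm. Ifih1 encodes MDA5, Ddx58 encodes RIG-I, and Dhx58 encodes LGP2, which modulates the other two. In all 3, both U0126 libraries were below both controls, a layout of 31% of all genes tested, and none passed the test. Dhx58 had the largest difference, at 2.17, 1.91, 1.21 and 0.552 CPM (log2 fold change -1.20 ± 0.42, edgeR adjusted p = 0.0909). Without U0126 replicate 1 it passed (log2 fold change -1.87, edgeR adjusted p = 0.0125). Ifih1 and Ddx58 differed less, with log2 fold changes of -0.30 ± 0.18 and -0.23 ± 0.20.

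Of the 19 antiviral effector genes, 15 were tested: 3 were lower with U0126, 0 higher, and 12 missed the threshold. That is 20% lower and 0% higher, beside 11.5% and 8.41% of all genes tested. Of the 3 that fell, Mx2 and Oas1a passed the low-count filter through the controls alone, so they had to differ. A set of these genes had counts in both control libraries and none with U0126. Mx2, a dynamin-like GTPase that blocks virus replication (chromosome 11, 38035450 to 38059950, rn6), had 64 and 40 counts in the controls and 0 in both U0126 libraries. The control levels were 1.61 and 0.919 CPM. With 3 counts over the U0126 libraries as the limit, Mx2 was at least 30.9-fold lower (edgeR adjusted p = 0.0044). The call held with RLE factors, library totals, no filter, DESeq2 and the replicate block. As Mx2 had to differ, this adds no support. Oas1a, an enzyme that makes 2′-5′-linked oligoadenylates to switch on RNA decay (chromosome 12, 41200718 to 41211909, rn6), had 27 and 18 control counts and 0 with U0126. Oas1a was at least 13.4-fold lower (edgeR adjusted p = 0.013), a call lost without control replicate 1 (0.113) or control replicate 2 (0.0648).

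The neighbour of Mx2, Mx1, and the radical-SAM enzyme viperin (Rsad2) showed the same layout at still lower counts. Mx1 had 12 and 6 counts in the controls and 0 with U0126, at least 5.35-fold lower. Rsad2 had 29 and 8 counts in the controls and 0 with U0126, at least 11-fold lower. Neither passed the low-count filter. With no filter, edgeR gave an adjusted p of 0.111 for Mx1 and 0.0487 for Rsad2, and 8.37% of all genes were lower. Control replicate 1 was the higher of the controls in all 4 of Mx1, Mx2, Oas1a and Rsad2. Reads of the Mx, Oas, Ifit, Ifitm and Gbp families may be shared between similar genes. How the counting treated such reads is not known, so their values are uncertain.

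Ifit1, which binds viral RNA lacking host cap marks, had 42, 14, 0 and 4 counts. Its count ratio of U0126 to control was 0.0801 (95% exact interval 0.0211 to 0.217). The spread between the controls was large and Ifit1 did not pass (edgeR adjusted p = 0.0616, from 0.0198 to 0.412 over the alternatives, and 0.033 by DESeq2). Its cluster neighbours had another layout. Ifit2 was at 15.7, 18.1, 21.4 and 20.2 CPM, with both U0126 libraries above both controls (log2 fold change 0.30 ± 0.13, edgeR adjusted p = 0.149). Ifit3, which had between 25 and 36 counts per library, overlapped between the groups. Oasl had 10, 9, 0 and 4 counts and was not tested (ratio 0.236, 95% exact interval 0.0584 to 0.711).

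Ifitm3 was the effector with the highest level that fell (chromosome 1, 213810696 to 213811901, rn6). It was at 515, 421, 272 and 304 CPM. Both U0126 libraries were below both controls, a fall of 1.63-fold (log2 fold change -0.70 ± 0.12, edgeR adjusted p = 0.00828). The call was lost without control replicate 1 (edgeR adjusted p = 0.0827) and kept in the other 8 alternatives. Its neighbour Ifitm2 was at 246, 208, 245 and 246 CPM, with overlapping groups (log2 fold change 0.11 ± 0.11, edgeR adjusted p = 0.504). The ratio of Ifitm3 to Ifitm2 counts was 2.09 and 2.02 in the controls and 1.11 and 1.23 with U0126, so the ratios did not overlap. An exact two-sided permutation test on the log2 ratio of their TPM over the 4 libraries gave p = 0.333, the smallest this design allows. Ifitm1, with 25 to 40 counts per library, overlapped between the groups.

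None of the other effectors passed. Isg20, an exonuclease that degrades RNA, was at 3.43, 3.61, 4.61 and 5.74 CPM, with both U0126 libraries above both controls (log2 fold change 0.56 ± 0.21, edgeR adjusted p = 0.105, and 0.035 without U0126 replicate 1). Eif2ak2, the RNA-activated kinase PKR that halts translation, was at 21.6, 18.4, 20.5 and 15.2 CPM, and Adar, the RNA-editing enzyme, at 26.5, 29.2, 26.3 and 22.8 CPM. Neither passed (log2 fold change -0.16 ± 0.17 and -0.18 ± 0.12). Samhd1, which depletes nucleotides needed by viruses, and the guanylate-binding proteins Gbp2 and Gbp5 had log2 fold changes between -0.10 and 0.22, each with overlapping groups. Bst2 (tetherin), which holds budding virus at the membrane, had 13, 44, 13 and 7 counts, and control replicate 2 was apart from the others (log2 fold change -1.31 ± 0.70, edgeR adjusted p = 0.236).

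**Figure D2:**
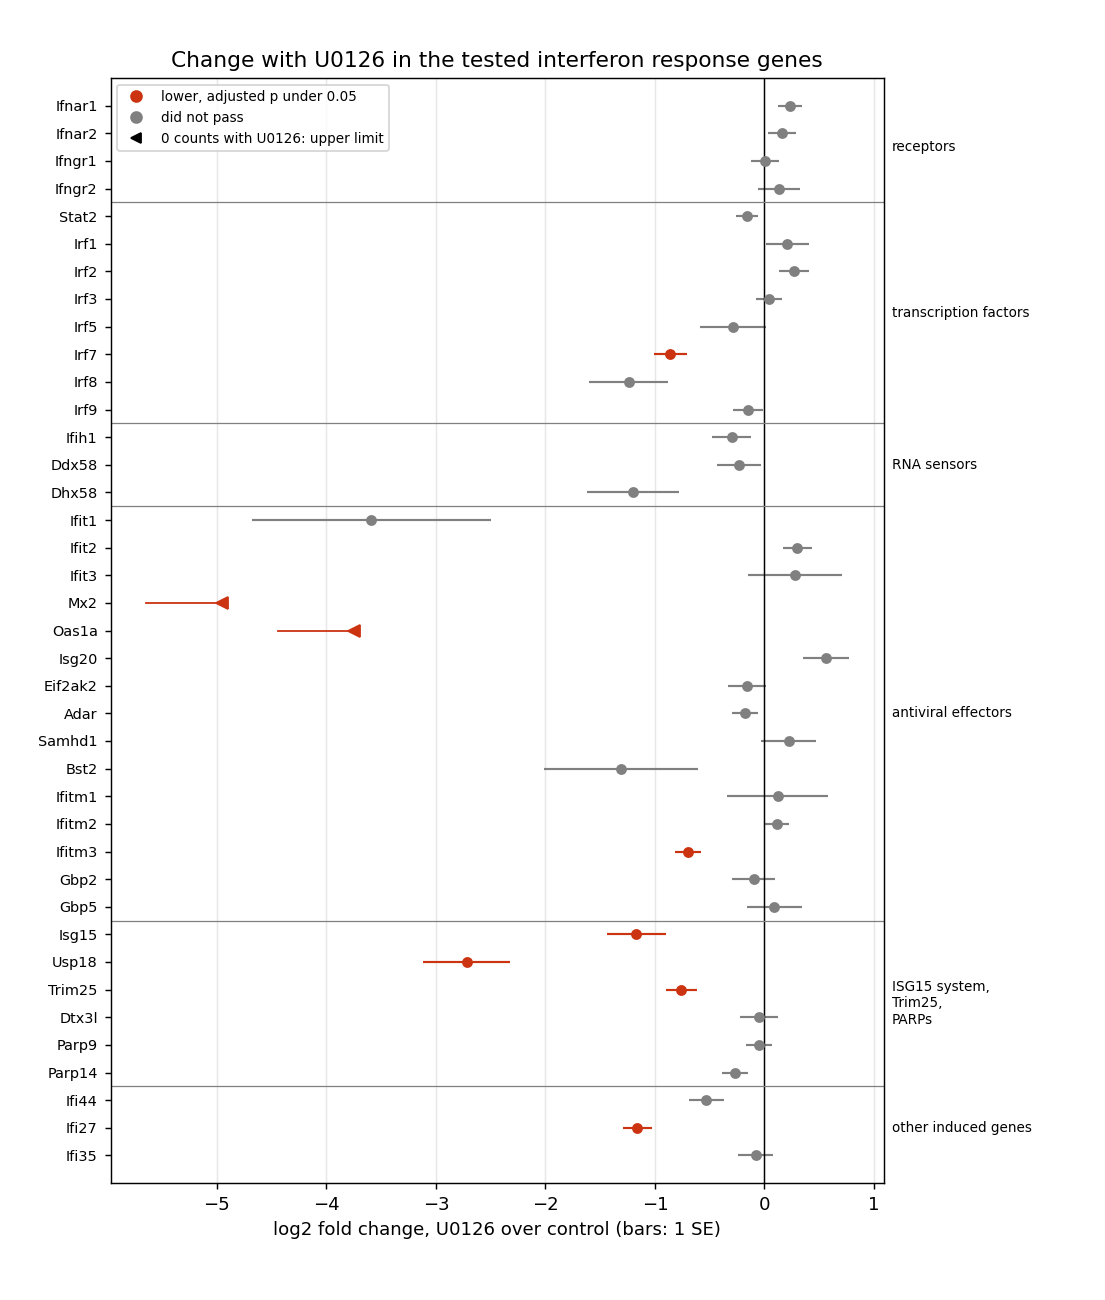
Log2 fold change of U0126 over control for the 39 tested genes, grouped by role, with bars of 1 SE; red points passed edgeR's test as lower and grey points did not pass. Mx2 and Oas1a, with 0 counts in the U0126 libraries, are drawn at their upper limit with a line to the left, and none of the 39 genes passed as higher.

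A group of 6 genes covers the ISG15 system, in which the ubiquitin-like protein ISG15 is attached to other proteins, and ADP-ribosylation enzymes. Of these 6, 3 fell (50%, against 11.5% of all genes tested) and 3 did not pass. Isg15 itself (chromosome 5, 173624310 to 173626248, rn6) was at 3.48, 3.06, 1.24 and 1.66 CPM, a fall of 2.26-fold (log2 fold change -1.17 ± 0.27, edgeR adjusted p = 0.0251). Usp18, the protease that removes ISG15 and dampens the type I receptor (chromosome 4, 153805993 to 153834430, rn6), was at 3, 2, 0.422 and 0.331 CPM. This was the largest fall among the genes with counts in every library, 6.57-fold (log2 fold change -2.72 ± 0.40, edgeR adjusted p = 0.00412). Trim25, a ligase for ubiquitin and ISG15 known for acting on RIG-I (chromosome 10, 76343847 to 76362145, rn6), was at 22.6, 21.6, 11.8 and 14.4 CPM, a fall of 1.69-fold (-0.76 ± 0.14, edgeR adjusted p = 0.0106). In each of the 3 genes, both U0126 libraries were below both controls.

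Without control replicate 1 none of these 3 genes passed (edgeR adjusted p = 0.202 for Isg15, 0.0586 for Usp18 and 0.107 for Trim25). Without control replicate 2, Usp18 passed (0.0212) and Isg15 and Trim25 did not (0.141 and 0.0908). The other members of the group are the ubiquitin ligase Dtx3l, its partner Parp9 and the ADP-ribosyltransferase Parp14, which lie together on chromosome 11. Parp9 was at 18.5, 17.7, 18.0 and 17.1 CPM and Dtx3l at 6.66, 5.93, 5.69 and 6.46 CPM, each with overlapping groups. Parp14 was at 28.7, 28.7, 21.9 and 25.6 CPM, lower in both U0126 libraries without passing (log2 fold change -0.27 ± 0.12, edgeR adjusted p = 0.158). It passed without U0126 replicate 2 (0.0213).

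Ifi27 had the smallest adjusted p of the 43 genes (chromosome 6, 127327959 to 127334428, rn6). It was at 196, 228, 85.7 and 104 CPM. Both U0126 libraries were below both controls, a fall of 2.24-fold (log2 fold change -1.16 ± 0.13, edgeR adjusted p = 0.00137). The call held in all 9 alternatives, with adjusted p-values of up to 0.0168. Ifi44, a cytoplasmic protein induced by interferon, was at 10.4, 9.21, 7.06 and 6.49 CPM and missed the threshold (log2 fold change -0.53 ± 0.16, edgeR adjusted p = 0.0552). It passed with library totals alone and without U0126 replicate 1 (edgeR adjusted p = 0.0406 and 0.03), and reached 0.366 without control replicate 1. Ifi35 overlapped between the groups (-0.08 ± 0.16).

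**Figure D3:**
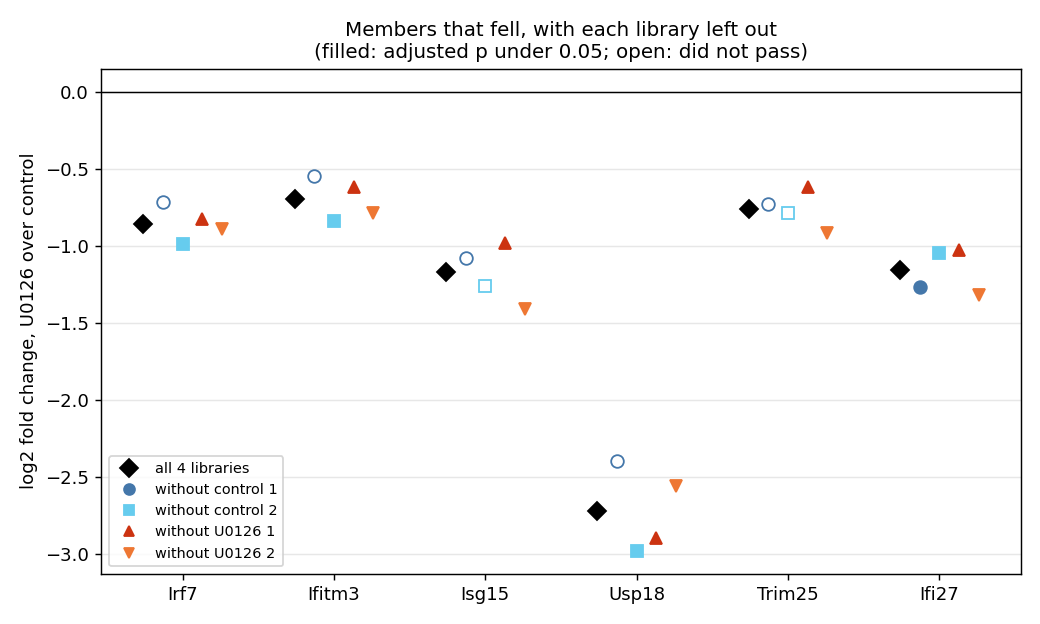
Log2 fold change of the 6 genes that fell and had counts in every library, with all 4 libraries and with each library left out in turn. Filled symbols passed edgeR's test and open ones did not; every value is below 0, and with control replicate 1 left out only Ifi27 passed among these 6.

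The promoters of the genes were compared for the elements that interferon-activated factors bind. RefSeq sequences of 300 bases (250 before the transcription start site and 50 from it, build GRCr8) were matched for 32 of the 43 genes. Entries for Mx2, Usp18, Isg15 and Ifit1 are among those not matched. The core of the ISRE was searched as GAAANNGAAA on both strands, and the GAS element as TTCNNNGAA, which reads the same on both strands. The ISRE core was in 16 of the 32 promoters (50%), against 3.92% of all 33469 promoters in the table. It was in 4 of the 5 matched genes that fell, in 11 of the 24 that did not pass and in 1 of the 3 that were not tested. The GAS element was in 9 of the 32 (28.1%), against 8.87% of all promoters. Among the genes that fell, Trim25 had neither element in this window. A match describes letters in the sequence and not binding.

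The promoters of the 4 genes that fell and hold an ISRE core are shown with that of Ifitm2, the neighbour of Ifitm3 that did not pass. Each is written 5′ to 3′ on the strand of the gene, and capitals mark the ISRE cores.
Oas1a (GRCr8 chr12:41330216-41330515, plus strand): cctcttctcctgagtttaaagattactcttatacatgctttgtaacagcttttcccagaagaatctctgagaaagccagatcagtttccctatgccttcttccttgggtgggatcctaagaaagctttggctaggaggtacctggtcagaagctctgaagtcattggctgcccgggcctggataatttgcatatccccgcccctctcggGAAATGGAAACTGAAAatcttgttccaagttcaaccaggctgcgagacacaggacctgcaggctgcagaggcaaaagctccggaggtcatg
Irf7 (GRCr8 chr1:205799974-205800273, minus strand): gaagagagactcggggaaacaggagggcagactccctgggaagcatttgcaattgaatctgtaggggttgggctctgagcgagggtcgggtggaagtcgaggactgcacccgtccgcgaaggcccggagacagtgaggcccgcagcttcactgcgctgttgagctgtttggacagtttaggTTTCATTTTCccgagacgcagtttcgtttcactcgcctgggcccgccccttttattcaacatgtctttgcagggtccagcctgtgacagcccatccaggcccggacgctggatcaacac
Ifi27 (GRCr8 chr6:128355062-128355361, plus strand): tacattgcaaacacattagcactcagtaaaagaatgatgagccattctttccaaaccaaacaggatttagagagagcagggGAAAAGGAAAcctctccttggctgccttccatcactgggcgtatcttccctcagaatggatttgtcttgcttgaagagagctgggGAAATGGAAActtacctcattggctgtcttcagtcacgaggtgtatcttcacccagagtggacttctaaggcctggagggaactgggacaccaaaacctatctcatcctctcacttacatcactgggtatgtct
Ifitm3 (GRCr8 chr1:205541709-205542008, minus strand): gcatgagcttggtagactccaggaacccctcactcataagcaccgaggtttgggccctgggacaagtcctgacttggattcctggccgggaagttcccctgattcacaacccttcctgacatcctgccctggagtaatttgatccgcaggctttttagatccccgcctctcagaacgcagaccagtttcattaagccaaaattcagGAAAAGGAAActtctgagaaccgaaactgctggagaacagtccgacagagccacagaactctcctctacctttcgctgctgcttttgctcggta
Ifitm2 (GRCr8 chr1:205482299-205482598, minus strand): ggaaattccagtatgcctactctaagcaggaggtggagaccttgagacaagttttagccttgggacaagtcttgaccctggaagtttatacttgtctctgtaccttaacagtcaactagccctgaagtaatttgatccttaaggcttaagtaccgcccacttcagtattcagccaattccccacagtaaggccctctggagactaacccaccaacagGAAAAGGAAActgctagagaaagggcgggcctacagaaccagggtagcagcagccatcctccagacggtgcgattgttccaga
Oas1a, which had no counts with U0126, holds 2 overlapping cores that begin 41 and 35 bases before the start site. The core of Irf7 begins 69 bases before the start and lies on the other strand, so that it reads TTTCATTTTC here. Ifi27 holds 2 cores, at 169 and 84 bases before the start. Ifitm3 and Ifitm2 carry the same core, GAAAAGGAAA, 44 and 33 bases before their start sites. Of the 5 promoters shown, those of Oas1a and Ifitm3 also hold a GAS element, 199 and 33 bases before the start. Genes that did not pass the test carry cores as well, among them Isg20, Ifih1, Ifit3, Eif2ak2, Gbp2, Gbp5 and Parp14.

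Several of the genes are neighbours in the deposited annotation (rn6), with gaps of at most 500 kb. Ifitm1, Ifitm2, Ifitm3 and Irf7 lie together on chromosome 1, and 2 of these 4 fell, beside 11.5% of all genes tested. The Ifit genes form another group on chromosome 1, in which Ifit1 was lower in both U0126 libraries and Ifit2 higher, neither passing the test. Ifnar1, Ifnar2 and Ifngr2 share a stretch of chromosome 11, and none passed. Mx1 and Mx2 lie further along chromosome 11, both with 0 counts in the U0126 libraries.

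The rest of the interferon pathway was described with a list of 75 further genes, of which 70 were in the table and 49 were tested. With U0126, 5 were higher, 3 lower and 41 missed the threshold (10.2% and 6.12%, against 8.41% and 11.5% of all genes). No interferon gene was expressed at a level that could be tested. Ifnb1, which encodes interferon beta, had 2 counts in control replicate 1 and 0 in the other libraries. Ifng and 4 other interferon genes of the list had 0 counts throughout.

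The kinases, STATs and inhibitors of the list included 2 of the genes that rose, among 10 tested (20%, beside 8.41% of all genes). Jak1 was at 213, 229, 313 and 268 CPM (1.31-fold higher, log2 fold change 0.39 ± 0.11, edgeR adjusted p = 0.0419). Jak2 was at 66.7, 64.8, 99.3 and 115 CPM (1.63-fold, 0.70 ± 0.10, edgeR adjusted p = 0.00413). In both genes, the U0126 libraries were above both controls. Both calls were lost without control replicate 1 (edgeR adjusted p = 0.306 for Jak1 and 0.055 for Jak2) and without control replicate 2 (0.193 and 0.0663). Jak1 also missed the threshold with library totals alone, with no filter, with the replicate block and without U0126 replicate 1 (0.0652, 0.0509, 0.0606 and 0.0543). Tyk2 did not pass (log2 fold change -0.10 ± 0.12). The feedback inhibitors Socs1 and Socs3 did not pass either (-0.34 ± 0.39 and 0.45 ± 0.21).

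Among 27 tested further interferon-induced genes 3 rose and 3 fell (11.1% each), shares near those of all genes tested (8.41% and 11.5%). Cxcl10, a chemokine that attracts T cells, had 102, 70, 6 and 10 counts, a fall of 9.52-fold (log2 fold change -3.25 ± 0.48, edgeR adjusted p = 0.0044). Oas1b, a close relative of Oas1a, had 79, 38, 2 and 0 counts (ratio 0.0192, 95% exact interval 0.0023 to 0.0708, edgeR adjusted p = 0.00715). Oas1b passed the low-count filter through the controls alone, so it had to differ. Parp12, an ADP-ribosyltransferase, was at 25.1, 22.4, 11.6 and 14.8 CPM (1.80-fold lower, -0.85 ± 0.15, edgeR adjusted p = 0.01). The genes that rose were Ifi30, a lysosomal thiol reductase of antigen processing (1.68-fold), the large ubiquitin ligase Rnf213 (1.43-fold) and Parp10 (1.55-fold). Parp10 passed in 4 of 9 alternatives, and missed the threshold also with library totals alone, with the replicate block and without U0126 replicate 2 (edgeR adjusted p = 0.0566, 0.0666 and 0.0588). Without control replicate 1 none of these 8 genes of the wider list passed (edgeR adjusted p from 0.055 for Jak2 to 0.306 for Jak1). Without control replicate 2, Cxcl10 and Oas1b passed as lower (0.0213 and 0.0197) and 0 genes passed as higher. Without U0126 replicate 2, 12 genes of the list passed as lower and 7 as higher, beside 17.3% and 14.8% of all genes tested.

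**Figure D4:**
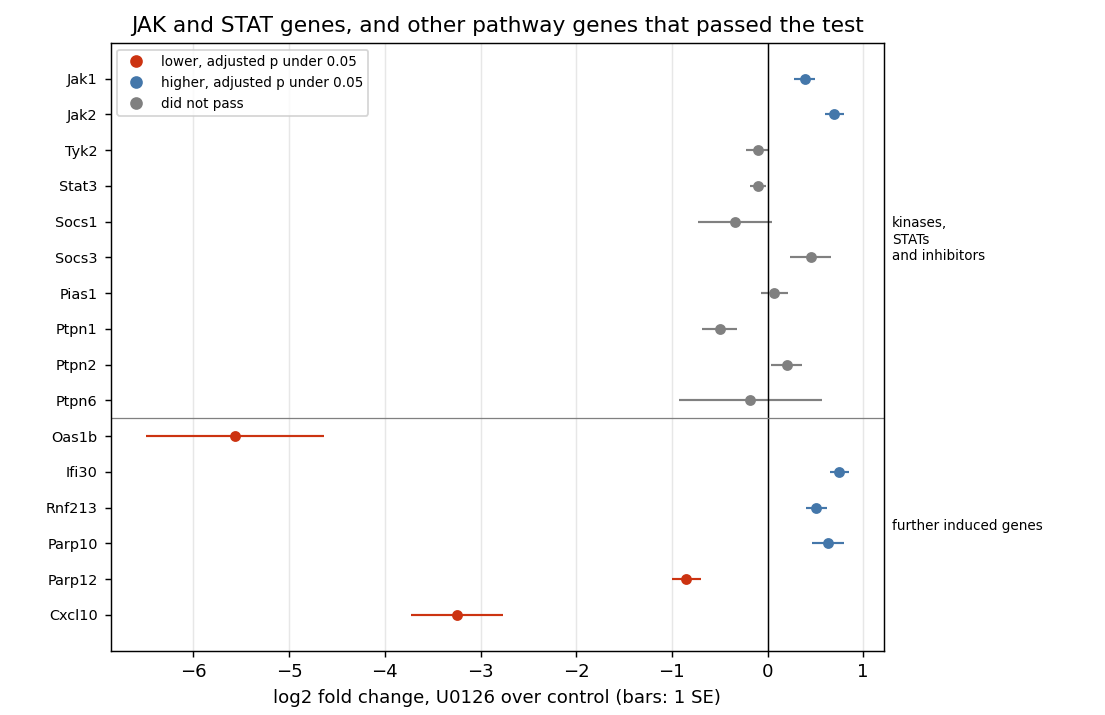
Log2 fold change of U0126 over control, with bars of 1 SE, for the 10 kinase, STAT and inhibitor genes and for the 6 further interferon-induced genes that passed edgeR's test. Blue points passed as higher, red as lower, and grey did not pass; Jak1 and Jak2 lie right of 0 and Oas1b and Cxcl10 far left of it; the fitted value of Oas1b, with 2 counts in the U0126 libraries, depends on the prior count.

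The summed level of leukocyte markers was lower in both U0126 libraries. Of 13 leukocyte and macrophage markers, 12 were in the table and 8 had a count. The sum was 18.7 and 19.9 CPM in the controls and 12.8 and 12.4 CPM with U0126. Cd14, named after its values were seen, made up most of this sum, at 12.3, 11.9, 10.9 and 10.7 CPM. Cd14 did not pass (log2 fold change -0.16 ± 0.13, edgeR adjusted p = 0.441). All 6 tested markers were lower in both U0126 libraries than in both controls, beside 31% of all genes tested. Of the 6, 2 passed the test (33.3%, beside 11.5% of all genes). These were Cd74, at 2.67, 4.30, 0.158 and 0.994 CPM (edgeR adjusted p = 0.0314), and Adgre1, with 23, 16, 2 and 0 counts (edgeR adjusted p = 0.0315), named after their values were seen. Adgre1 passed the low-count filter through the controls alone, so it had to differ. Without control replicate 1 and without control replicate 2, Cd74 missed the threshold (edgeR adjusted p = 0.0829 and 0.212), as did Adgre1 (0.227 and 0.134). Adgre1 also missed it with no filter, with the replicate block and without U0126 replicate 2 (0.0628, 0.0546 and 0.0674), and passed in 4 of 9 alternatives. The defining leukocyte markers Ptprc, Aif1, Tyrobp and Cd3e had 0 counts in all 4 libraries. The part of such cells in the lower levels of Irf8, Mx2, Usp18 and the other genes was not tested. Endothelial markers summed to between 2.50 and 3.93 CPM, with overlapping groups. The summed level of the Schwann cell markers was 13.4 and 8.27 CPM in the controls and 44.4 and 26.3 CPM with U0126. S100b made up most of it (12.7, 7.17, 41 and 24.6 CPM), while Mbp went the other way at 6, 4, 2 and 0 counts. The skeletal muscle markers summed to 10 and 7.58 CPM in the controls and 2.69 and 3.09 CPM with U0126. Des and Myod1 carried that sum. Myod1 passed the low-count filter through the controls alone, so it had to differ. Myog went the other way at 6, 0, 25 and 8 counts, as did Myf5 (log2 fold change 2.38 with no filter, edgeR adjusted p = 0.668). These single markers were named after their values were seen. Sox10, Ckm and Pax7, which define those cell types, had 0 counts throughout, and the part of these cells was not tested.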

How the data were processed

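Gene expression was measured by RNA sequencing of total RNA from rat TSPCs, 2 libraries given DMSO and 2 given U0126, grouped by sample title. Per the labels' protocols, Trizol was used for extraction and an Illumina protocol for the libraries. The genome build is rn6, per the submitters' processing notes; no aligner, counter or annotation release is given in the sources used here. Per the file headers, the table deposited by the authors holds counts, TPM and FPKM per gene and library. The deposited counts were whole numbers and were used for all edgeR and DESeq2 tests. The deposited TPM values were used to compare levels between genes and in the permutation test of Ifitm3 over Ifitm2. FPKM values were not used. Columns were matched to samples by header, and 0 were left unmatched.

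The members and gene lists were chosen with earlier results of these data known. Members are the rows whose gene name equals a listed symbol. Genes were filtered with filterByExpr (minimum count 10, minimum total 15), scaled by TMM and tested in R 4.3.3 with edgeR 4.0.16 (limma 3.58.1), two-sided, at an adjusted p threshold of 0.05. The SE was taken as |log2 fold change| over √F. Folds against a group at 0 counts use a floor of 3 counts over its 2 libraries. Count ratios carry exact conditional intervals at 95%. All 43 members may be named. Of the other pathway genes, those past the threshold and 5 fixed ones may be, with Uba7, Ube2l6 and Herc6 added later. Of the lists, 2 genes are not reported here and are left out of the list counts. Alternatives were RLE factors, library totals, no filter, DESeq2 1.42.0, a replicate block and leaving out each library.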

Additional observations from a re-analysis of the deposited data

How the results depend on the processing

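All 8 members that fell stayed lower and past the threshold with RLE factors, library totals, no filter, DESeq2 and the replicate block. Of these 8, Mx2 and Oas1a had to differ, so their calls add no support here and 6 calls remain. In these settings 8 to 10 members fell and 0 rose. With one library left out, the members that fell numbered from 2 to 13 and those that rose from 0 to 4; over all genes 604 to 2506 were lower and 295 to 2138 higher, against 1612 and 1180 with all libraries. In the wider pathway list, 0 to 12 fell and 0 to 7 rose with a library left out, against 3 and 5. Of the 49 tested genes of that list, 5 fell with library totals and 6 by DESeq2, beside 13.2% and 12.1% of all genes. With library totals 3 rose and with the replicate block 3, beside 6.78% and 6.83% of all genes. The causes were not tested.

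The replicate numbers gave no evidence of pairing: deviations of control 1 and U0126 1 from their group means had a correlation of -0.05 over 14023 genes. With the replicate block, 9 members fell, adding Irf8, and 958 genes were higher and 1413 lower.

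Directions that changed all belonged to genes that did not pass with all 4 libraries. Ifngr1 had log2 fold changes of -0.0006 (RLE and DESeq2), -0.05 (library totals), -0.001 (no filter) and -0.01 (replicate block), and Irf3 of -0.01 with library totals. With one library left out, values ran from -0.19 to 0.17 for Ifngr1, -0.20 to 0.40 for Ifngr2, -0.14 to 0.49 for Irf1, -0.06 to 0.14 for Irf3, -0.92 to 0.15 for Irf5, -0.39 to 0.02 for Eif2ak2, -0.31 to 0.45 for Ifitm1, -0.005 to 0.24 for Ifitm2, -0.27 to 0.06 for Gbp2, -0.28 to 0.38 for Gbp5, -0.15 to 0.04 for Dtx3l and -0.25 to 0.07 for Ifi35. Genes under about 10 counts per library, such as Mx1 and Oasl, are limited by depth.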
